A study of Mus musculus with 18 samples.

Results

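The 10 genes described here encode the enzymes that carry glucose through the upper steps of glycolysis, together with a pair of regulators of those steps. They were chosen by their symbols (Hk1, Hk2, Gpi1, Pfkl, Pfkm, Pfkp, Pfkfb3, Pfkfb4, Aldoa and Aldoc). They are 10 of 14804 genes listed for at least 1 of 3 cell types, and all 10 were listed and passed the filter on low values (over 0.4 TPM in at least 2 of 6 libraries) in every cell type. In XEN cells Pfkp passed it through its day 7 libraries only. Gene expression had been measured by bulk RNA-seq in mouse embryonic stem cells (ESCs), trophoblast stem cells (TSCs) and extra-embryonic endoderm stem (XEN) cells. Normoxic cells of each type were cultured at 20% oxygen, and hypoxic cells spent 2 or 7 days at 2% oxygen. Every condition had 2 biological replicates, which gave 18 libraries. The comparisons asked how each stem cell type adjusts its transcripts to acute and to prolonged lack of oxygen. The ESCs were wild-type E14 cells grown without feeder cells on gelatin in serum and LIF. The TSCs were grown on feeder fibroblasts, and the XEN cells on gelatin. The labels name no line for the TSCs and XEN cells.

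Hexokinases trap glucose in the cell by phosphorylating it, glucose phosphate isomerase converts the product to fructose phosphate, and phosphofructokinase adds the second phosphate in the committed step of the pathway. Aldolase then splits the sugar into a pair of triose phosphates. PFKFB enzymes make and break down a second fructose bisphosphate, which is not an intermediate of the pathway but activates phosphofructokinase. Many of these genes are known targets of the hypoxia-inducible factors, which bind DNA at short elements with the core ACGTG or GCGTG.

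Levels are given in TPM as deposited. The deposited values scaled with gene length from first to last base, introns counted, so levels of different genes are compared only after division by summed exon length (exon-length TPM). Library depth lay between 35592641 and 75204029 reads, and every level of the 10 genes rested on at least 24 reads. The ESC list of 6 markers summed to between 6998 and 7707 TPM in ESC libraries, and to at most 1211 TPM in TSCs and 4.28 TPM in XEN cells. Of the ESC list, 4 were listed in TSCs, where Sox2 (128.6 to 1104 TPM) made up most of the sum. There Zfp42, Esrrb and Nanog reached at most 86.1, 28.15 and 4.67 TPM. The XEN list of 6 summed to between 2084 and 2331 TPM in XEN cells and to at most 22.9 TPM elsewhere. The TSC list of 6 summed to between 701 and 1291 TPM in TSCs and to at most 146.7 TPM elsewhere. Markers of feeder fibroblasts varied widely between TSC libraries. All 7 of them were listed in TSCs, Col1a1 and Thy1 having the highest deposited TPM, and none was at 0. Marker sums are of deposited TPM, in which a shorter gene span weighs more, so they do not rank the markers by transcript. They summed to 1842 and 259 TPM in the replicates of normoxia, 196 and 946 TPM on day 2, and 423 and 253 TPM on day 7. Of 6 markers of differentiated trophoblast, 4 were listed in TSCs. They summed to 234 TPM in TSC normoxia replicate 2 and between 11.9 and 29.8 TPM in the other TSC libraries. On that scale the high sum was nearly all Syna, which reached 231.2 TPM, whereas Prl3d1, Prl2c2 and Gcm1 reached at most 6.53, 1.46 and 1.81 TPM. In bulk samples, fewer cells of a type cannot be told apart from less RNA per cell.

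Aldolase and not hexokinase or phosphofructokinase had the most transcript in every library. Per exon length, Aldoa stood first among the 10 genes in each cell type, with a median over 6 libraries of 2740 exon-length TPM in ESCs. The median was 2340 for TSCs and 1312 for XEN cells. Its libraries did not overlap with those of any other of the 10 genes. In ESCs the order went on with Hk2 (median 344), Gpi1 (324) and Pfkl (302), whose ranges overlapped, and then Pfkp (125), which overlapped with Pfkl. Pfkm (48.3) followed without overlap with Pfkp or with Hk1 (31.2). Hk1, Aldoc (21.5) and Pfkfb3 (16.8) overlapped with each other, and Pfkfb4 stood last, with 1.82 to 2.52 exon-length TPM. In TSCs Hk1 (median 247) came after Aldoa and Gpi1, overlapping with Gpi1 (255) above it and not with Hk2 (187) below it. Pfkfb4 was again last, with a median of 11.3 exon-length TPM. In XEN cells the last place was held by Pfkp, with 0.191 to 2.34 exon-length TPM, below Aldoc (0.698 to 3.07), and these ranges overlapped.

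**Figure D1:**
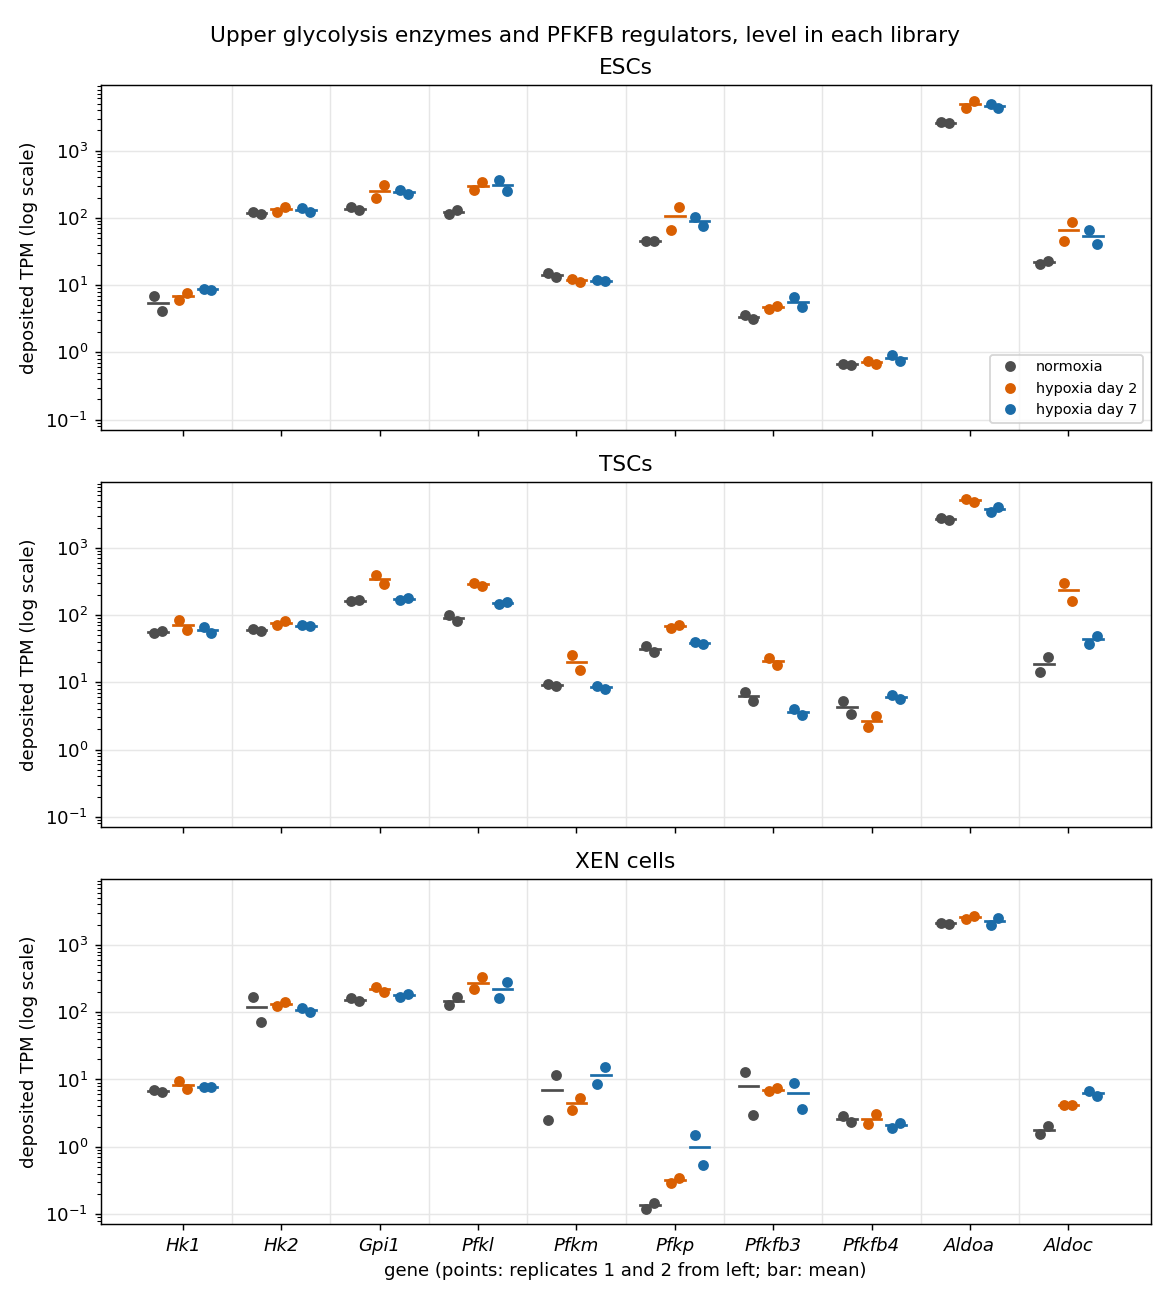
Deposited TPM (logarithmic axis) of the 10 genes in each of the 18 libraries, by cell type and condition; points are libraries and bars are means of 2 replicates. Pfkp reached at most 1.47 TPM in XEN cells, and the Aldoc libraries of TSCs on day 2, at 301 and 164 TPM, sat above all the others.

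The genes lie on different chromosomes of mm10, with Hk1 and Pfkl both on chromosome 10 and Gpi1 and Aldoa both on chromosome 7. Pfkl spans chr10:77986947-78010083 on the minus strand, and Aldoc spans chr11:78322968-78327781 on the plus strand. Pfkp (chr13:6579768-6648777, minus strand) shares 748 bases of exon with Pitrm1 on the opposite strand, which is 5.58% of its exons. Gpi1 (chr7:34201330-34230336, minus strand) shares 741 bases with the long non-coding Gm26762, and Pfkm (chr15:98092589-98132451, plus strand) shares 341 bases with Gm26513 on the same strand. Whether the authors counted by strand is not given in the sources used here, so part of the reads of Pfkp, Gpi1 and Pfkm could come from these neighbours.

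The 250 bases before each annotated start of the 10 genes (RefSeq, GRCm38.p6) were searched on both strands for the cores ACGTG and GCGTG. Windows were found for all 10 genes, 18 in all. ACGTG was found for 4 of the 10 genes (Hk2, Pfkm, Pfkfb3 and Aldoa), against 18.5% of 27025 genes. GCGTG was found for 7 (Hk1, Pfkl, Pfkm, Pfkp, Pfkfb3, Pfkfb4 and Aldoc), against 30.9% of all genes, and Gpi1 had neither. A match to 5 letters is a description of the sequence and not a binding site. The stretches below, read 5′ to 3′ on the strand of the gene with the core in capitals in either orientation, belong to 6 of the genes described below.
Pfkl: atttgtagactgGCGTGcgctccgccttt
Aldoc: ccacctctgaggGCGTGgccttaccctag
Pfkp: ggccccgcccttGCGTGagtcccgcccat
Pfkfb3: ctccgcgccgtgACGTGccaagctgtgac
Aldoa: tgtggctcgagtCACGTcctagcggggcg
Hk2: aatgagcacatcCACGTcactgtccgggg
The Pfkl core begins 99 bases before the start (chr10:78009890-78009918, minus strand). That of Aldoc begins 50 bases before it (chr11:78323011-78323039, plus strand), and that of Pfkp 68 bases before it (chr13:6648823-6648851, minus strand). The Pfkfb3 core lies 60 bases before the upstream of its 2 starts (chr2:11553973-11554001, minus strand). The Aldoa core lies 126 bases before 1 of its 3 starts and 202 bases before another (chr7:126799364-126799392, minus strand), and the Hk2 core 52 bases before the start (chr6:82774490-82774518, minus strand).

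In ESCs, Pfkl was the 1 gene of the 10 that rose in hypoxia by the test used, and it did so on day 7. Of all genes 0.758% were differentially expressed then, 0.717% higher and 0.0407% lower. Pfkl, the liver-type phosphofructokinase, stood at 115 and 131 TPM in normoxia, 264 and 339 TPM on day 2, and 360 and 254 TPM on day 7. All 4 hypoxic libraries lay above both normoxic ones. The log2 fold change was 1.29 (SE 0.19, n = 2 per group) on day 7, with an adjusted p of 0.0404 (limma on log2(TPM + 0.5), Benjamini-Hochberg over 12271 genes). On day 2 it was 1.28 (SE 0.19) with an adjusted p of 0.215. Differentially expressed (DE) means an adjusted p at or under 0.1 and a change over 1.5-fold. The adjusted p was 0.311 without normoxia replicate 1, 0.305 without normoxia replicate 2 and 0.261 without day 7 replicate 1. Without either day 2 library, or with only the 4 libraries compared, Gpi1, Pfkp, Aldoa and Aldoc were DE beside Pfkl, with adjusted p between 0.0117 and 0.0339. These calls are not set against the share of all genes called in the same fits. Each exact permutation test of 2 against 2 libraries is limited to a two-sided p of 0.333 or more.

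On day 2 no gene of the 12271 was DE in ESCs (limma), and 620 had an unadjusted p under 0.05. None of the 10 was therefore DE, 5 had an unadjusted p under 0.05, and with voom on recovered reads Pfkl was DE (adjusted p 0.097). The libraries of day 2 lay wholly above normoxia for 7 of the 10 genes, against 16.4% of all genes, and wholly below for Pfkm, against 14.4%. Past 1.5-fold higher were 5 of the 10, against 2.41% of all genes, and none was past 1.5-fold lower, against 1.18%. On day 7 the libraries of 9 of the 10 lay wholly above normoxia, against 23% of all genes, and those of Pfkm wholly below, against 17.5%. Past 1.5-fold higher on day 7 were 7 of the 10, against 4.62%, and none was lower, against 1.23%. The median log2 fold change of the 10 was 0.65 on day 2 and 0.75 on day 7, where that of all genes was 0.01 and 0.02. Gpi1, Pfkl, Pfkp, Aldoa and Aldoc were each lower in day 2 replicate 1 than in replicate 2. Without replicate 1 their log2 fold changes on day 2 were 1.17, 1.46, 1.66, 1.095 and 1.97. Without replicate 2 they were 0.56, 1.096, 0.57, 0.71 and 1.03. In each of these fits, day 2 was 1 library assumed to vary like the other groups.

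**Figure D2:**
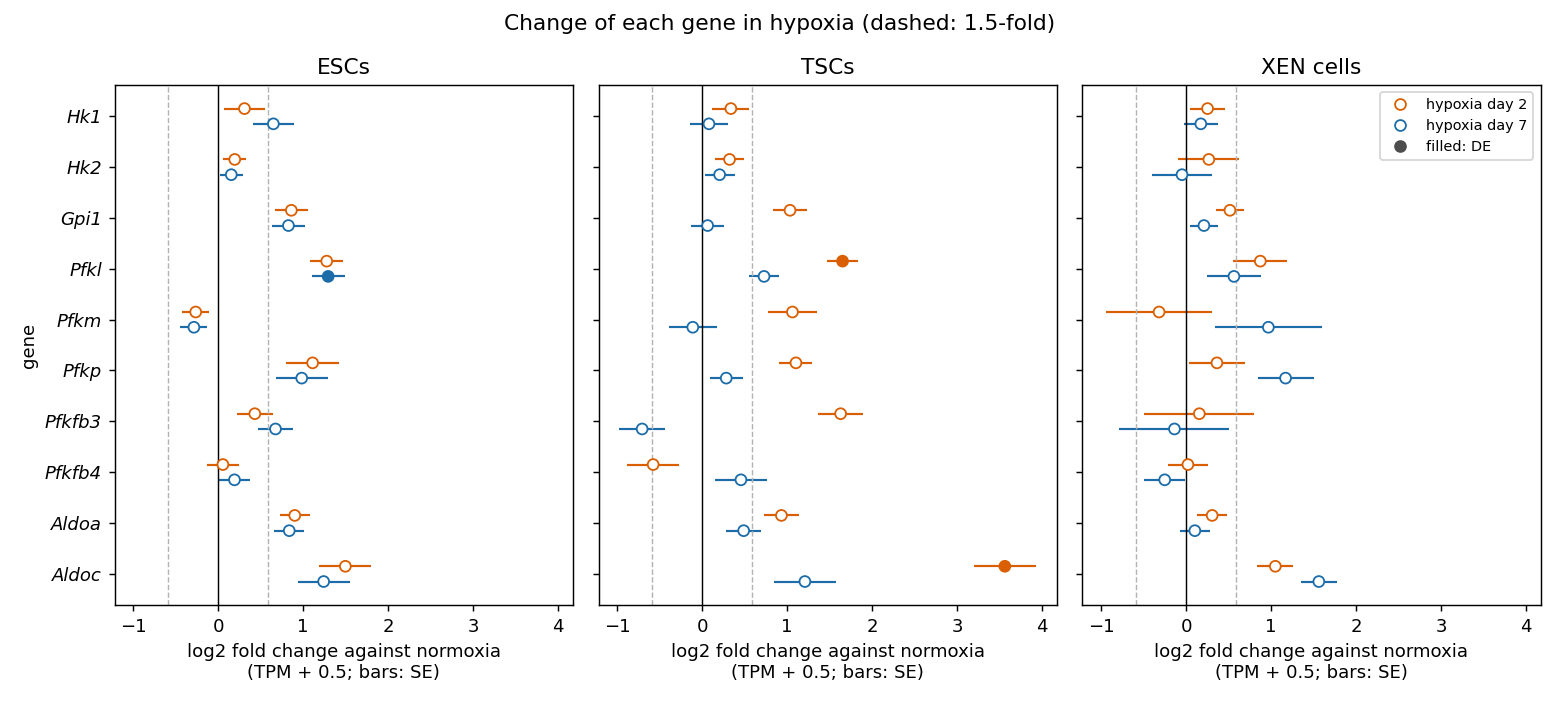
Log2 fold change in TPM + 0.5 after 2 and 7 days of hypoxia, against normoxia, for each cell type, from limma on 6 libraries per cell type; bars are standard errors, filled circles are DE and dashed lines mark 1.5-fold. Aldoc in TSCs on day 2 lies farthest to the right, at 3.56.

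The hexokinases and the isomerase of ESCs did not pass the test on either day. Hk2, the hexokinase with most transcript in these cells, stood at 122 and 113 TPM in normoxia, 123 and 146 TPM on day 2, and 139 and 123 TPM on day 7. Its log2 fold change was 0.19 on day 2 (adjusted p 0.987) and 0.15 on day 7 (adjusted p 0.921, limma), each with a standard error of 0.14. Hk1, the widely expressed hexokinase, was past 1.5-fold on day 7 only (log2 0.65, SE 0.24, adjusted p 0.509), from 6.87 and 4.15 TPM to 8.77 and 8.59 TPM. Gpi1, the isomerase, stood at 143 and 129 TPM in normoxia, 200.2 and 306 TPM on day 2, and 257 and 227 TPM on day 7. Its log2 fold change was 0.86 on day 2 and 0.83 on day 7, with an adjusted p of 0.522 and 0.175.

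Among the other phosphofructokinases, Pfkp and Pfkm went in opposite directions in ESCs. Pfkp, the platelet type, stood at 45.5 and 44.6 TPM in normoxia, 66.9 and 143 TPM on day 2, and 104 and 76.7 TPM on day 7 (log2 0.98, SE 0.31, adjusted p 0.377 on day 7). The replicates of day 2 differed more than day 2 replicate 1 differed from normoxia. Pfkm, the muscle type, stood at 15.1 and 13.4 TPM in normoxia, and all 4 hypoxic libraries were lower, at 12.3, 11.2, 11.8 and 11.3 TPM. Its log2 fold change was −0.26 on day 2 (adjusted p 0.983) and −0.29 on day 7 (adjusted p 0.754), so the lower level did not pass the test.

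The aldolases and Pfkfb3 of ESCs lay wholly above normoxia on both days without passing the test. Aldoa, the main aldolase, stood at 2621 and 2564 TPM in normoxia, 4229 and 5539 TPM on day 2, and 4930 and 4344 TPM on day 7. Its log2 fold change was 0.84 on day 7 (SE 0.18, adjusted p 0.126). Aldoc, the brain-type aldolase, stood at 20.7 and 23.1 TPM in normoxia, 45.1 and 86.9 TPM on day 2, and 66.0 and 41.5 TPM on day 7, which was 2.82-fold higher on day 2 (adjusted p 0.522) and 2.36-fold on day 7 (adjusted p 0.205). Pfkfb3, the isozyme that mostly makes the activator of phosphofructokinase, stood at 3.55 and 3.11 TPM in normoxia and 6.64 and 4.72 TPM on day 7 (log2 0.67, SE 0.21, adjusted p 0.377). Pfkfb4 stayed between 0.643 and 0.914 TPM in the 6 ESC libraries and overlapped with normoxia on day 2, each value resting on 87 to 176 reads. Between day 2 and day 7, none of the 10 was DE or past 1.5-fold in ESCs (limma), none had an unadjusted p under 0.05 and none was DE with voom, beside 0.179% of all genes that were DE. Of all genes 4.26% had an unadjusted p under 0.05, 2.42% were past 1.5-fold higher and 0.733% lower. The libraries of Hk1 lay wholly above day 2, against 15.2% of all genes, and none of the 10 lay wholly below, against 8.8%.

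In TSCs, Aldoc and Pfkl rose on day 2, and the change of Aldoc was the largest of all 12481 genes tested. Aldoc stood at 14.1 and 23.9 TPM in normoxia and at 301 and 164 TPM on day 2. The log2 fold change was 3.56 (SE 0.36, adjusted p 0.0493, limma), and the lower day 2 library was several times the higher normoxic one. Pfkl stood at 99.0 and 82.3 TPM in normoxia and at 299 and 271 TPM on day 2 (log2 1.65, SE 0.18, adjusted p 0.0637). These were 2 of the 10, where 0.2% of all genes were DE, 0.192% higher and 0.00801% lower. With only the 4 libraries compared, both had an adjusted p of 0.244. Both calls were also lost without day 2 replicate 1, day 2 replicate 2, day 7 replicate 1 or day 7 replicate 2, with adjusted p between 0.112 and 0.455, and both were kept without either normoxic library. Normoxia replicate 1 was the library with the most feeder fibroblast transcript, and the log2 fold change without it was 3.19 for Aldoc and 1.79 for Pfkl.

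On day 2 the libraries of 9 of the 10 genes lay wholly above normoxia in TSCs, against 30.6% of all genes, and those of Pfkfb4 lay wholly below, against 16.9%. Past 1.5-fold higher were 7 of the 10, against 12.6% of all genes, and none was past 1.5-fold lower, against 6.45%. The median log2 fold change of the 10 was 1.05, beside 0.07 for all genes. The 4 listed ESC markers summed to between 1164 and 1211 TPM on day 2, above their normoxic 741 to 786 TPM, with none DE by limma, and their part in the result was not tested. Pfkfb3 stood at 7.29 and 5.34 TPM in normoxia and 22.7 and 18.3 TPM on day 2 (log2 1.63, SE 0.27, adjusted p 0.116). It was DE with voom (adjusted p 0.0616). Pfkp stood at 34.8 and 28.0 TPM in normoxia and 65.2 and 70.2 TPM on day 2 (log2 1.10, adjusted p 0.126). Gpi1 stood at 161 and 166 TPM in normoxia and 389 and 290.2 TPM on day 2 (log2 1.03, adjusted p 0.144). Aldoa stood at 2728 and 2578 TPM in normoxia and 5340 and 4804 TPM on day 2 (log2 0.93, adjusted p 0.191). For each of these the groups did not overlap, although the test across all genes was not passed.

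Pfkm was higher on day 2 in TSCs, unlike in ESCs, at 9.48 and 8.75 TPM in normoxia and 25.2 and 15.2 TPM on day 2 (log2 1.06, SE 0.28, adjusted p 0.231). Pfkfb4, the other PFKFB isozyme, was at 5.19 and 3.39 TPM in normoxia and 2.19 and 3.20 TPM on day 2 (log2 −0.58, SE 0.30, adjusted p 0.464). The hexokinases moved least. Hk1 stood at 54.7 and 58.2 TPM in normoxia and 83.8 and 60.8 TPM on day 2. Hk2 stood at 62.7 and 57.8 TPM in normoxia and 70.6 and 80.4 TPM on day 2, with a log2 fold change of 0.32 (SE 0.18, adjusted p 0.474), beside 0.34 for Hk1 (SE 0.22, adjusted p 0.549).

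By day 7 most of these differences in TSCs were smaller, and none of the 10 was DE against normoxia (limma), where 0.385% of all genes were DE, 0.0401% higher and 0.345% lower. The libraries of 6 of the 10 lay wholly above normoxia, against 8.98% of all genes, and those of Pfkfb3 wholly below, against 32.3%. Past 1.5-fold, 2 of the 10 were higher, against 3.21%, and 1 was lower, against 12.7%. Pfkl, Pfkfb3, Aldoa and Aldoc had an unadjusted p under 0.05 (limma), and none of the 10 was DE with voom. The share of all genes with such a p is not given for this comparison, so these p-values do not set the genes apart. Aldoc stood at 37.5 and 49.5 TPM on day 7, above normoxia by 1.21 on the log2 scale (adjusted p 0.319), and Pfkl at 145 and 155 TPM, above by 0.73 (adjusted p 0.239). Gpi1 (165 and 178 TPM) and Pfkm (8.85 and 7.99 TPM) overlapped with normoxia. Pfkfb3 stood at 4.08 and 3.24 TPM, below both normoxic libraries (log2 −0.71, SE 0.27, adjusted p 0.438). The median log2 fold change was 0.24 for the 10 genes and −0.18 for all genes, and with median-ratio scaling it was 0.44 and −0.01. That scaling left 4 of the 10 past 1.5-fold higher, against 5.54% of all genes, and none past it lower, against 7.48%. TSC markers summed to between 1114 and 1210 TPM in normoxia and between 701 and 776 TPM on day 7, with 1 of 6 DE and lower. The ESC markers listed in TSCs summed to between 741 and 786 TPM in normoxia and between 172 and 217 TPM on day 7, with 2 of 4 DE and lower. The part of these markers in the result was not tested.

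Between day 2 and day 7, 7 of the 10 changed in TSCs by the same test, 6 falling and 1 rising. Over all genes 16.2% were DE, 13.8% lower and 2.37% higher, so a fall was common in this comparison. The libraries of day 7 lay wholly below those of day 2 for 7 of the 10, against 44.9% of all genes, and wholly above for 1, against 14.3%. Past 1.5-fold, 6 were lower, against 26.7% of all genes, and 1 was higher, against 5.99%. Pfkfb3 fell by 2.34 on the log2 scale (SE 0.27, adjusted p 0.014) and Aldoc fell by 2.35 (SE 0.36, adjusted p 0.0214). Pfkm fell by 1.17 (adjusted p 0.0543), Gpi1 by 0.97 (adjusted p 0.0359), Pfkl by 0.92 (adjusted p 0.0334) and Pfkp by 0.82 (adjusted p 0.0514). Pfkfb4 was the gene that rose, from 2.19 and 3.20 TPM on day 2 to 6.39 and 5.56 TPM on day 7 (log2 1.03, SE 0.30, adjusted p 0.0835). Aldoa lay lower without passing the test (log2 −0.44, SE 0.21, adjusted p 0.212), and both hexokinases overlapped between the days. The day 2 and day 7 comparisons with normoxia share the normoxic libraries, whereas this one does not use them in the difference.

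The scale of the day 7 libraries bears on these counts. The median log2 fold change of all genes between the days was −0.24, and −0.87 for the 10. With median-ratio scaling, which moved the median of all genes to 0.01, the median of the 10 was −0.59, and 5 of them were DE, with Gpi1 and Pfkp at an adjusted p of 0.109. The same scaling changed the counts over all genes from 296 higher and 1723 lower to 724 higher and 982 lower. Pfkfb4 had an adjusted p of 0.104 with no filter on low values. Without day 2 replicate 1 none of the 7 was DE, with adjusted p between 0.129 and 0.397. Without day 7 replicate 2 none was either, and without day 7 replicate 1 or day 2 replicate 2, 1 and 5 were. The TSC markers moved with these genes. Their sum was 1221 and 1291 TPM at the lowest and highest on day 2 and 701 and 776 TPM on day 7, with 4 of 6 DE and lower between the days. The 4 listed ESC markers were all DE and lower. Their sum, mostly Sox2, was 1164 and 1211 TPM on day 2 and 172 and 217 TPM on day 7. The part of these markers in the result was not tested. Markers of feeder fibroblasts summed to 196 and 946 TPM on day 2 and 423 and 253 TPM on day 7, so their ranges overlapped between the days.

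**Figure D3:**
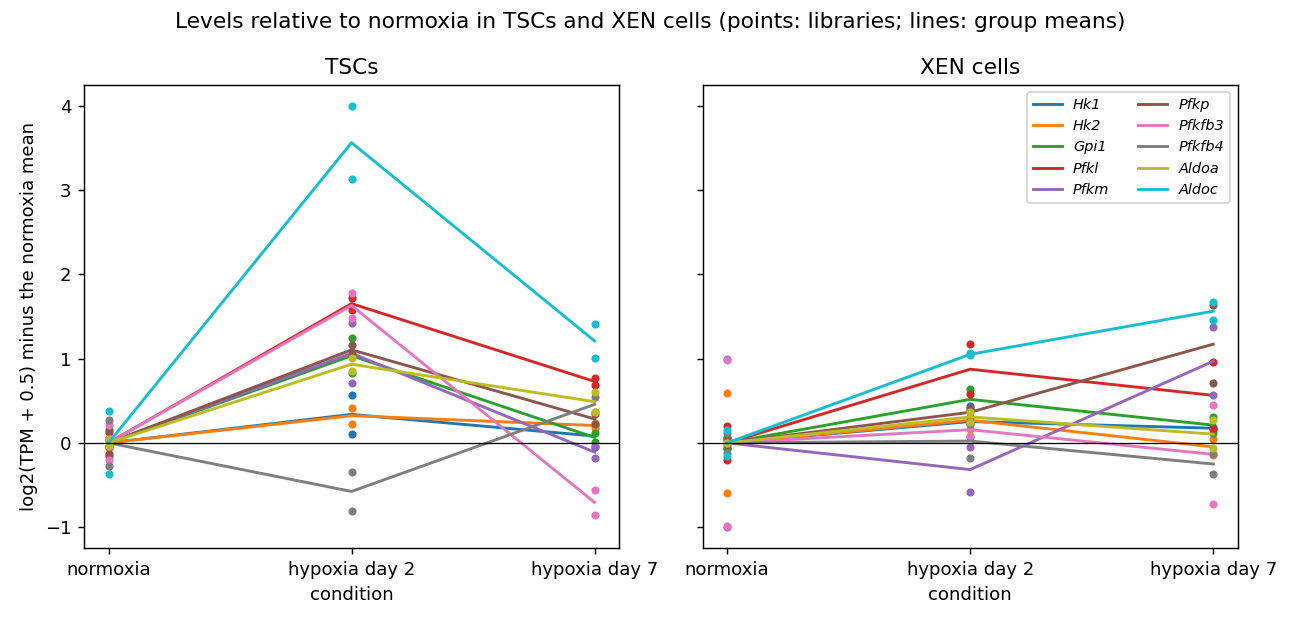
Log2(TPM + 0.5) minus the normoxic mean of the cell type, for each of the 10 genes, by condition; points are libraries and lines join group means. In TSCs 9 of the 10 means are above normoxia on day 2 and Pfkfb4 is below, and in XEN cells the Aldoc mean is at 1.05 on day 2 and 1.56 on day 7.

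In XEN cells none of the 10 was DE in any comparison, and Aldoc came nearest. On day 2 no gene of the 10894 was DE (limma), 846 had an unadjusted p under 0.05, and among the 10 these were Gpi1, Pfkl and Aldoc. On day 7, 0.11% of all genes were DE, all higher, and of the 9 genes other than Pfkp, Aldoc had an unadjusted p under 0.05. The share of all genes with such a p is not given for the XEN comparisons that use day 7. None of the 10 was DE with voom on either day. Pfkp is left out of the counts that use day 7, because it passed the filter only through the day 7 libraries, where it was high. Aldoc stood at 1.54 and 2.03 TPM in normoxia, 4.24 and 4.17 TPM on day 2, and 6.72 and 5.74 TPM on day 7. The 3 groups did not overlap, and the log2 fold change was 1.05 on day 2 (SE 0.21, adjusted p 0.334) and 1.56 on day 7 (adjusted p 0.104). With median-ratio scaling Aldoc was DE on day 7 (adjusted p 0.0911). These values rested on 24 to 122 reads.

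Of the 10 genes in XEN cells, 6 lay wholly above normoxia on day 2, against 19.6% of all genes, and none wholly below, against 21.4%. Past 1.5-fold higher were 2, against 4.62%, and none was past 1.5-fold lower, against 4.08%. On day 7, 3 of the 9 lay wholly above normoxia, against 17.5%, and Pfkfb4 wholly below, against 23.9%. Past 1.5-fold, 2 of the 9 were higher, against 6.41%, and none was lower, against 3.64%. The median log2 fold change of all 10, Pfkp included, was 0.29 on day 2 and 0.19 on day 7, beside −0.01 and −0.03 for all genes. The day 7 median thus takes in a gene that passed the filter only through that group. Pfkl stood at 127 and 169 TPM in normoxia, 219 and 330.1 TPM on day 2, and 164 and 286 TPM on day 7 (log2 0.87, SE 0.32, adjusted p 0.597 on day 2). Gpi1 stood at 161 and 145 TPM in normoxia and 240 and 201 TPM on day 2 (log2 0.52, SE 0.16, adjusted p 0.546). Aldoa, at 2092 and 2083 TPM in normoxia and 2476 and 2697 TPM on day 2, had a log2 fold change of 0.31 (SE 0.17, adjusted p 0.716).

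Pfkp was close to absent from XEN cells. It stood at 0.121 and 0.147 TPM in normoxia, 0.285 and 0.347 TPM on day 2, and 1.47 and 0.534 TPM on day 7, on 27 to 383 reads. The filter was passed only where it was high, so the day 7 difference is a description, with no test. The log2 fold change on day 7 was 1.17. It understates the change of a gene below the pseudocount, and up to 5.58% of its exon bases are shared with Pitrm1.

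The replicates of normoxic XEN cells differed in 3 of the genes. Hk2 stood at 167 TPM in replicate 1 and 72.8 TPM in replicate 2, and Pfkfb3 at 13.0 and 2.93 TPM. Pfkm went the other way, at 2.52 and 11.6 TPM. On day 7 Pfkfb3 and Pfkm again went opposite ways, whereas Hk2 differed little. Replicate 1 had 114 TPM of Hk2, 8.78 TPM of Pfkfb3 and 8.43 TPM of Pfkm, and replicate 2 had 100.03, 3.62 and 15.1 TPM. On day 2 the replicates were closer than in normoxia, and all 3 genes were higher in replicate 2 (124 and 143 TPM of Hk2, 6.70 and 7.46 of Pfkfb3, 3.53 and 5.32 of Pfkm). For these genes the normoxic libraries spanned most of the range of all 6, and the standard error of the log2 fold change was 0.63 for Pfkm and 0.65 for Pfkfb3. Without normoxia replicate 2, Pfkm was DE on day 7 (log2 1.97, adjusted p 0.090) and so was Aldoc (log2 1.72, adjusted p 0.0503). Without normoxia replicate 1 the log2 fold change of Pfkm turned to −0.031 (adjusted p 0.999) and that of Aldoc was 1.41 (adjusted p 0.235). In each of these fits normoxia was 1 library, assumed to vary like the other groups. Pfkm stood higher on day 7 than on day 2 by 1.29 (SE 0.63, adjusted p 0.440). Between day 2 and day 7, where 0.0367% of all genes were DE, none of the 10 was (limma or voom), and of the 9 without Pfkp, Aldoc had an unadjusted p under 0.05. The libraries of Pfkm and Aldoc lay wholly above day 2, against 21.7% of all genes, and those of Hk2 and Gpi1 wholly below, against 25.9%. Past 1.5-fold, Pfkm was higher, against 7.66% of all genes, and none of the 9 was lower, against 4.8%.

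Per exon length, the leading hexokinase differed between the cell types, whereas Pfkl, Pfkfb3 and Aldoa had the highest median share of their families in all 3. Shares were taken within each library from exon-length TPM, so they do not depend on the scale of a library. Hk2 made up 90.1% to 94.5% of the hexokinase pair (Hk1 and Hk2) in the 6 ESC libraries and 87.7% to 93.7% in the 6 XEN libraries. In TSCs it made up 34.9% to 45.7%, and Hk1 held the larger part in all 6. With the deposited division by gene span, the order of the pair in TSCs was not settled, Hk1 having a median share of 47.3%. Of the 12 pairs of family and cell type, this was the 1 in which the isozyme with the highest median share depended on the length used. Hk1 stood at 54.4 to 83.8 TPM in TSCs, and at 4.15 to 8.77 TPM in ESCs and 6.51 to 9.41 TPM in XEN cells. The tables were normalized separately, so this difference was not tested.

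**Figure D4:**
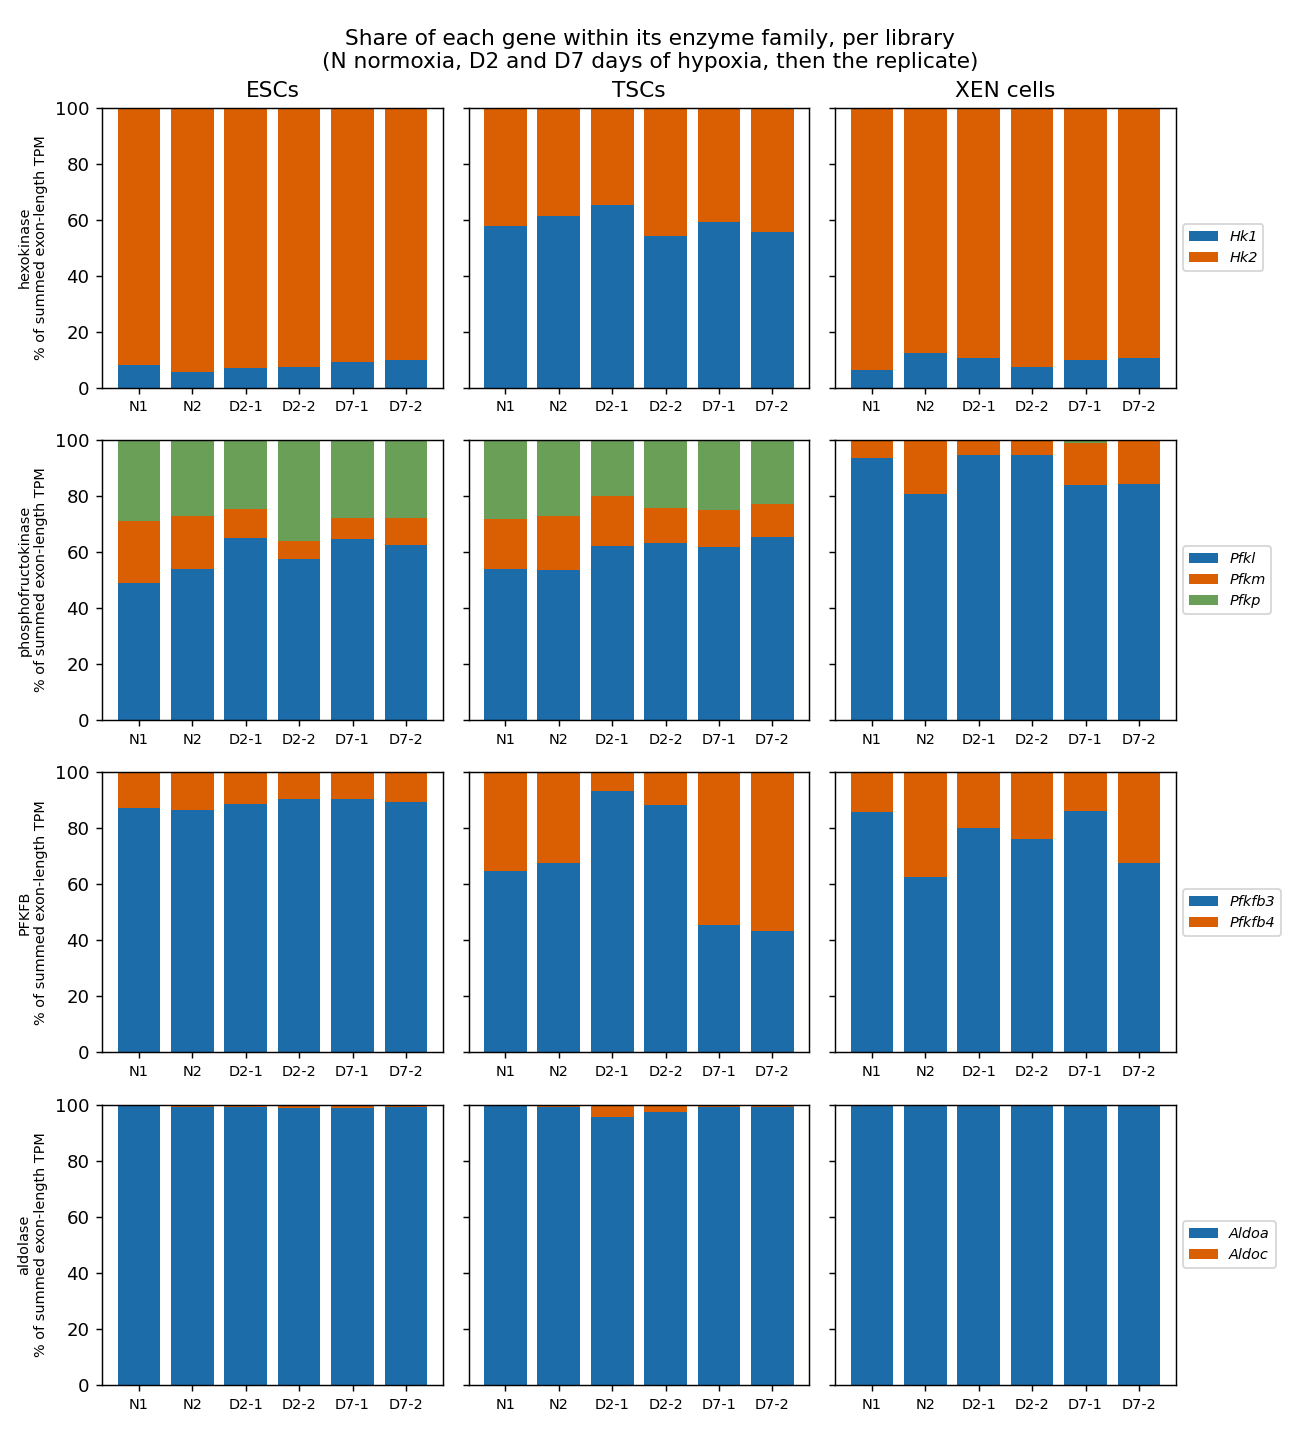
Share of each gene in the summed exon-length TPM of its family, in percent, for each of the 18 libraries; bars add to 100. Hk1 takes the larger part of the hexokinase pair in TSCs alone, Pfkp is barely visible in XEN cells, and Pfkfb4 takes the larger part of its pair in the 2 TSC libraries of day 7.

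Per exon length, Pfkl held the largest share of the phosphofructokinases in all 18 libraries, from 49.0% upwards. With the length of the longest coding transcript it did so in 16, and Pfkp led in ESC normoxia replicate 1 and day 2 replicate 2. In ESCs the share of Pfkm was 20.5% ± 2.27 (SD, n = 2) in normoxia, 8.50% ± 2.79 on day 2 and 8.45% ± 1.62 on day 7, and that of Pfkl was 51.5% ± 3.45, 61.2% ± 5.37 and 63.6% ± 1.68. In TSCs Pfkl held 53.7% ± 0.411 in normoxia, 62.7% ± 0.995 on day 2 and 63.6% ± 2.53 on day 7. In both cell types the Pfkl share of all 4 hypoxic libraries was above that of both normoxic ones on this scale. In ESCs this depended on the length, since the share of Pfkl in day 2 replicate 2 lay below normoxia replicate 2 with gene span (68.7% and 69.4%) and with the longest transcript (45.3% and 46.8%). In XEN cells Pfkl held 80.8% to 94.6%, Pfkm 5.25% to 19.1% and Pfkp 0.105% to 1.12%.

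The balance of the PFKFB pair swung in TSCs. Pfkfb3 made up 66.2% ± 1.80 (SD, n = 2) of the pair in normoxia, 90.7% ± 3.49 on day 2 and 44.5% ± 1.59 on day 7. The 3 groups did not overlap, and the largest SD was far smaller than the differences between them. In ESCs the share stayed between 86.4% and 90.6%. In XEN cells it ran from 62.6% to 86.1%, and the normoxic replicates alone, at 85.8% and 62.6%, spanned nearly all of it. Aldoc made up 0.558% ± 0.225 of the aldolase pair in normoxic TSCs and 3.39% ± 1.13 on day 2, so that Aldoa remained the aldolase with most transcript in every library, at 95.8% or more.

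Other genes of the pathway gave the setting of these changes. The lower glycolysis list of 11 genes, from Tpi1 to Ldhb, held 3 DE genes in ESCs on day 7, all higher, where 0.717% of all genes were. These were Tpi1, which interconverts the products of aldolase (log2 1.62, adjusted p 0.0222), Ldha, which makes lactate (log2 0.99, adjusted p 0.0813), and Pgam2 (log2 0.90, adjusted p 0.0951). The median log2 fold change of the list was 0.48 there and 0.51 on day 2, beside 0.02 and 0.01 for all genes. In TSCs on day 2, 2 of the 11 rose, Eno2 (log2 2.13, adjusted p 0.0757) and Pgk1 (log2 1.72, adjusted p 0.0757), where 0.192% of all genes did. The median of the list was 1.07, beside 0.07 for all genes. By day 7 none was DE against normoxia, where 0.385% of all genes were. Between the days 5 of the 11 fell in TSCs, with Eno2 at −2.36 and Ldhb at −1.64, beside 13.8% of all genes that were DE and lower and an all-gene median of −0.24. In XEN cells none of the 11 was DE in the 3 comparisons. No gene at all was DE there on day 2, 0.11% were on day 7 and 0.0367% between the days. The lack of calls therefore does not set the list apart.

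Among the 4 glucose and lactate transporters, the monocarboxylate exporter Slc16a3 rose in ESCs on day 7 (log2 2.07, adjusted p 0.0161). The glucose transporter Slc2a3 rose in TSCs on day 2 (log2 3.53, adjusted p 0.0325) and fell by 3.12 between the days (adjusted p 0.0114). Of all genes, 0.717% were DE and higher in ESCs on day 7 and 0.192% in TSCs on day 2. Between the days 13.8% were DE and lower in TSCs. In XEN cells Slc16a3 stood higher by 2.45 on day 2 and 2.55 on day 7, with an adjusted p of 0.287 and 0.103. The side branches take carbon to the pentose phosphate pathway, glycerol, hexosamines and glycogen. Of 12 genes of these branches, Pgm1 rose in TSCs on day 2 (log2 1.80, adjusted p 0.0657). None was DE against normoxia in ESCs or XEN cells. No gene at all was DE in those cells on day 2, and on day 7 0.758% and 0.11% of all genes were. Of 10 other paralogs and opposing enzymes, 5 passed the filter in ESCs, 6 in TSCs and 4 of them for XEN cells. None of those was DE against normoxia (limma). At most 0.758% of all genes were DE in any of these comparisons, so this does not set the list apart. Between the days in TSCs, the gluconeogenic phosphatase Fbp2 fell by 1.01 (adjusted p 0.0913). The list of 10 general hypoxia genes (8 of them tested in XEN cells) had a median log2 fold change on day 2 of 0.94 in ESCs, 1.47 in TSCs and 0.67 for XEN cells. On day 7 it was 0.91, 0.49 and 0.84 in that order. The medians of all genes were 0.01, 0.07 and −0.01 on day 2 and 0.02, −0.18 and −0.03 on day 7. On day 7 Ndufa4l2 rose in ESCs (log2 3.66, adjusted p 0.0813) and Egln3 in XEN cells (log2 2.81, adjusted p 0.0119). In TSCs Bnip3 rose by 2.46 and Pdk1 by 2.47 on day 2 (both with an adjusted p of 0.0191).

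The mean of the 10 genes, each centred within its cell type on the log2 scale, ran from −0.48 in the lowest ESC library to 0.40 in the highest. The range was −0.51 to 0.76 for TSCs and −0.31 to 0.18 for XEN cells (Pfkp included), the lowest library being normoxic in each case. In XEN cells Pfkp passed the filter only through its day 7 libraries. The XEN mean and the r values below thus take in a gene that was high in that group. Over the 18 libraries and 10081 genes tested in all cell types, the 5 other genes most like this mean were Bnip3 (Pearson r 0.945), Car12 (0.942), Prelid2 (0.930), Pgm1 (0.929) and Pgk1 (0.928). The libraries share their conditions, so these values are descriptions. Of the 10 genes themselves, Aldoc was most like the mean (r 0.953), followed by Gpi1 (0.926), Pfkl (0.907) and Aldoa (0.896). Hk2 (0.415), Pfkm (0.390) and Pfkfb4 (−0.449) were least like it. Each of the 10 is itself part of the mean, which raises its r, the more so for a gene with large changes such as Aldoc. The r values of the 10 are therefore not set against those of the 5 other genes. Pfkm followed the mean within TSCs (r 0.925, 6 libraries) and ran against it within ESCs (−0.849).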

How the data were processed

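Bulk RNA-seq of ESCs, TSCs and XEN cells gave 18 libraries, grouped by the labels. Normoxia is headed day 0 in the tables. The authors trimmed reads with cutadapt 2.4, aligned them to mm10 with STAR 2.7.5a, ran StringTie 2.0.6, counted genes with featureCounts, kept protein-coding genes over 0.4 CPM in at least 2 of 6 libraries (edgeR 3.26.8), and deposited TPM, which sum to 1000000 per library, in 1 table per cell type. No column was left unmapped. Tables were normalized separately, so no test was made between cell types.

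Multiples of a common step gave back whole reads when TPM were multiplied by gene span (98.5% to 98.9% of values under 1000 reads lay within 0.05 of a whole number, against 9.64% to 15.5% with exon length). All values of the 10 genes were recovered. Exon lengths came from GENCODE M21. Genes over 0.4 TPM in at least 2 of 6 libraries were tested with limma 3.58.1 in R 4.3.3 (log2(TPM + 0.5), 6 libraries per cell type, mean-variance trend, Benjamini-Hochberg adjustment). DE genes had an adjusted p at or under 0.1 and over 1.5-fold, the thresholds of the study. The fit was tested on simulated data. Standard errors rest on the variance of a gene pooled over all groups of its cell type. That variance was moderated by limma toward the trend over all genes. They therefore do not show the spread of the 2 replicates of any single group.

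All 10 genes were named in each cell type, with at most 3 genes per other list and comparison (the DE ones of largest fold, else the largest fold) and the 5 genes most like their mean. The genes, lists and tests were chosen with earlier results of these data known. Lists are described by counts and medians. Alternatives were pseudocounts of 0.1 and 1, no filter or 1 TPM, median-ratio scaling, a replicate block, only the 4 libraries compared, voom on recovered reads, each library left out, and an adjusted p of 0.05. Python 3.11.15 and matplotlib 3.10.9 were used.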

Additional observations from a re-analysis of the deposited data

Results flagged for a closer look

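The genes differed between cell types or days in 2 ways. For 5 genes (Pfkm, Pfkp, Pfkfb3, Pfkfb4 and Aldoc), both libraries of a group moved one way in a cell type and the opposite way in another. The difference between cell types was not tested. In a single comparison and direction, between 8.8% and 44.9% of all genes lay wholly above or wholly below the other group. How many of all genes moved in opposite ways was not counted, so this is not read as particular to the 5. On day 2 against normoxia, the log2 fold change of Pfkm was −0.26 in ESCs and 1.06 in TSCs. On day 7 against normoxia, that of Pfkfb3 was 0.67 in ESCs and −0.71 in TSCs, and that of Pfkfb4 was 0.19 in ESCs and 0.46 in TSCs, beside −0.25 for XEN cells. Between day 2 and day 7, Pfkm was at −1.17 in TSCs and 1.29 in XEN cells, Pfkp at −0.82 and 0.81, and Aldoc at −2.35 and 0.51. Pfkp passed the filter on low values in XEN cells only through its day 7 libraries, so its value there is a description.

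In TSCs the change from normoxia on day 7 differed from that on day 2 for 7 genes by limma's test of the difference. This is the comparison between the days described above and not a further result. Of all genes 16.2% were DE in it, 13.8% lower and 2.37% higher, and fewer of the 7 were DE with median-ratio scaling. The differences (log2) were −0.97 for Gpi1, −0.92 for Pfkl, −1.17 for Pfkm, −0.82 for Pfkp, −2.34 for Pfkfb3, 1.03 for Pfkfb4 and −2.35 for Aldoc. With 2 libraries per group, no library could be tested as an outlier.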

How the results depend on the processing

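Counts here and below are of the 10 genes that were DE, and medians are of their log2 fold changes. The number of all genes that were DE also changed with the setting, in ESCs on day 7 from 93 to 67 with no filter on low values. The counts are therefore not set against the shares of the main fit, and they cannot show a change particular to the 10. The count in ESCs on day 2 was 1 with voom, and the median was 0.86 with a filter of 1 TPM. In ESCs on day 7 the count was 5 with the 4 libraries compared, 3 with voom and 0 with the replicate block (Pfkl adjusted p 0.139). In TSCs on day 2 it was 0 with the replicate block (Pfkl and Aldoc adjusted p 0.193), 0 with the 4 libraries compared and 1 at an adjusted p of 0.05. In TSCs on day 7 the median was 0.44 with median-ratio scaling and 0.39 with voom, and Pfkm turned to 0.073 and 0.022. Between the days in TSCs the count was 4 at an adjusted p of 0.05 and 6 with the replicate block (Pfkfb4 adjusted p 0.108), and the median was −0.59 with median-ratio scaling and −0.74 with voom. In XEN cells, the count on day 7 was 1 with median-ratio scaling and 1 with the replicate block (Aldoc adjusted p 0.0972), and with voom Pfkfb4 was −0.019 on day 2 and Pfkfb3 0.033 on day 7. The deviations of libraries with the same number correlated at r from −0.46 to 0.27, and in no cell type were all 3 pairs over 0.1, so the numbers were not taken as pairs. With the day 2 numbers swapped in the block, chosen after seeing the data, the count was 1 and 3 for ESCs on day 2 and day 7, and 5 and 1 for TSCs. Between the days it was 7 for TSCs and 0 for ESCs, and it was 0 in the 3 XEN comparisons, the same counts as without the block.

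Leaving out 1 library at a time gave counts of 0 to 5 for ESCs on either day. For TSCs the counts were 0 to 2 on day 2 and 0 to 7 between the days. For XEN cells they were 0 to 2 on day 7, with 2 lacking normoxia replicate 2. The median ran from 0.46 to 0.80 in ESCs on day 2, 0.67 to 0.91 on day 7 and −0.16 to 0.21 between the days. In TSCs it ran from 0.84 to 1.15 on day 2, 0.14 to 0.35 on day 7 and −0.88 to −0.79 between the days. In XEN cells, with Pfkp included, it ran from 0.28 to 0.46 on day 2, 0.13 to 0.32 on day 7 and −0.24 to −0.066 between the days. Some single genes changed sign. For Hk1 the range was −0.023 to 0.64 in ESCs (day 2) and −0.051 to 0.21 in TSCs (day 7). For XEN cells on day 2, Hk2 ran from −0.33 to 0.87, Pfkm from −1.32 to 0.68, Pfkfb3 from −0.83 to 1.14 and Pfkfb4 from −0.18 to 0.23. On day 7, Hk2 ran from −0.64 to 0.55, Pfkm from −0.031 to 1.97, Pfkfb3 from −1.12 to 0.85 and Aldoa from −0.062 to 0.27. The cause of these changes was not tested. Levels of Pfkp and Aldoc in XEN cells and of Pfkfb4 in ESCs rested on the fewest reads.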
